A study of Mus musculus with 11 samples.

Results

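The genes described here are those of the mitochondrial respiratory chain and the ATP synthase in mouse bone marrow-derived macrophages, nearly all of them genes for subunits. They were taken by name and by chromosome. Protein-coding rows with the standard symbols of complexes I to V and cytochrome c gave 87 nuclear genes, and protein-coding rows of the mitochondrial chromosome gave 13, so 100 of the 25121 genes in the table belong to the set. A further 13 rows that matched by name were pseudogenes or a noncoding RNA, and 24 mitochondrial rows were ribosomal or transfer RNAs; these were left out of the set. Cox5b-ps, which the table types as protein-coding but describes as a pseudogene, met the rule and was kept under complex IV, and Atp5if1, which encodes an inhibitor of the ATP synthase, under complex V. The nuclear members comprise 37 of complex I, 4 of complex II, 9 of complex III, cytochrome c, 18 of complex IV and 18 of complex V. The mitochondrial members comprise 7 of complex I, 1 of complex III, 3 of complex IV and 2 of complex V.

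The macrophages were grown on Transwell inserts above primary renal proximal tubular epithelial cells, and all cultures received TGF-β1, a profibrotic cytokine, at 5 ng/mL for 72 h. One group of 6 libraries had TGF-β1 alone (replicates 1 to 6), and the other of 5 libraries had TGF-β1 with hemin, an oxidised form of heme, at 10 µM (replicates 2 to 6). No group without TGF-β1 and none without epithelial cells is analysed here, and the labels give neither strain nor age. Whether the libraries of a group came from separate animals or cultures is not in the labels, so p-values measure the spread between these libraries, which may be technical. RNA was poly(A)-selected and sequenced in bulk, so fewer cells of a type and less RNA per cell cannot be told apart.

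The respiratory chain passes electrons from NADH (complex I) and succinate (complex II) through ubiquinone, complex III and cytochrome c to oxygen at complex IV, and complexes I, III and IV pump protons that drive ATP synthesis at complex V. The catalytic core of these pumps is encoded partly in mitochondrial DNA and partly in the nucleus, while the accessory subunits and all of complex II are nuclear. The mitochondrial genes are transcribed as long polycistronic RNAs that are cut at transfer RNAs. Complexes II, III and IV and cytochrome c carry heme.

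Total counts were 65509474 to 71458745 per library with TGF-β1 and 66695616 to 96586085 with hemin, where replicates 5 and 6 were the deepest. Of the 7 macrophage markers, 2 passed the test with higher values with hemin, Adgre1 and Cd68, as 8.43% of all tested genes did. Csf1r, Lyz2, Mertk, Fcgr1 and Itgam did not pass. Of these, Csf1r and Lyz2 had fold changes toward higher values with hemin, and Mertk, Fcgr1 and Itgam toward lower ones. The summed level of the 7 markers was 3858 to 5809 FPKM with TGF-β1 and 4682 to 5499 FPKM with hemin. FPKM is a level scaled to transcript length and library depth. The 4 proximal tubule markers in the table summed to at most 0.14 FPKM in any library, with none at 0 in all of them. The 6 markers of other epithelia summed to 6.14 to 12.1 FPKM with TGF-β1 and 3.0 to 7.04 FPKM with hemin, and Cdh1 among them was lower. The summed levels with TGF-β1 and with hemin were 17.3 to 51.0 and 13.1 to 23.6 FPKM for 6 fibroblast markers, 0.0536 to 150 and 0.372 to 397 FPKM for 5 erythroid markers, and 5.83 to 7.59 and 4.85 to 6.09 FPKM for 5 neutrophil markers. Their part in the results below was not tested.

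2 features of the mitochondrial sequences bear on how the counts can be read, and the sequences are shown for that reason. First, 7 unprocessed pseudogenes lie in 1 block on the minus strand of chromosome 1 between positions 24650616 and 24655278 (GRCm39), and each is a near copy of a mitochondrial gene. In 6 of the 7 every aligned base is identical. The exception is Gm29216, which aligns to 483 bases of mt-Co1, the catalytic subunit of complex IV (MT:5328-6872, plus strand), or 31.3% of that gene, with 1 mismatch. The first 60 aligned bases of both are given 5′ to 3′, from base 1063 of mt-Co1 and base 10 of Gm29216, with the mismatch (A1066T, numbered from the start of mt-Co1) in capitals.
mt-Co1: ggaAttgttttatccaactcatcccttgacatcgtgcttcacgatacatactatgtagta
Gm29216: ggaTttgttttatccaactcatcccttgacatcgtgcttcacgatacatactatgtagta
Within the aligned stretches, reads that do not cover that base cannot be told apart by sequence. The count on the near copy was 98.0 to 101% of that on mt-Co2 (with Gm28661), 105 to 106% of mt-Atp6 (Atp6-ps), 99.4 to 101% of mt-Co3 (Gm28437), 86.3 to 95.4% of mt-Nd3 (Gm28438) and 97.2 to 101% of mt-Nd4l (Gm10222). These 5 near copies span almost the whole gene. For the partial copies of mt-Nd4 (Gm28439, 63.6% of the gene) and mt-Co1 it was 40.6 to 43.2% and 6.03 to 7.0%. No source used here says how the counting dealt with reads that match both, so the levels of these 7 mitochondrial genes relative to the others are uncertain. Second, mt-Atp8 and mt-Atp6, the 2 mitochondrial ATP synthase genes, overlap by 43 bases (7927 to 7969 of 7766 to 7969 and 7927 to 8607). The whole of mt-Atp8 is shown with the shared bases in capitals.
mt-Atp8: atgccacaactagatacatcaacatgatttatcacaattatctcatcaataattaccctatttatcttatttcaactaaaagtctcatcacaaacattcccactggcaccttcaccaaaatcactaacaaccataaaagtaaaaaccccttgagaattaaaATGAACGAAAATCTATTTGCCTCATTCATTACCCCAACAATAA
These sequences are GENCODE M21 transcripts, and the 13 mitochondrial genes have the same positions there as in the deposited table.

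**Figure D1:**
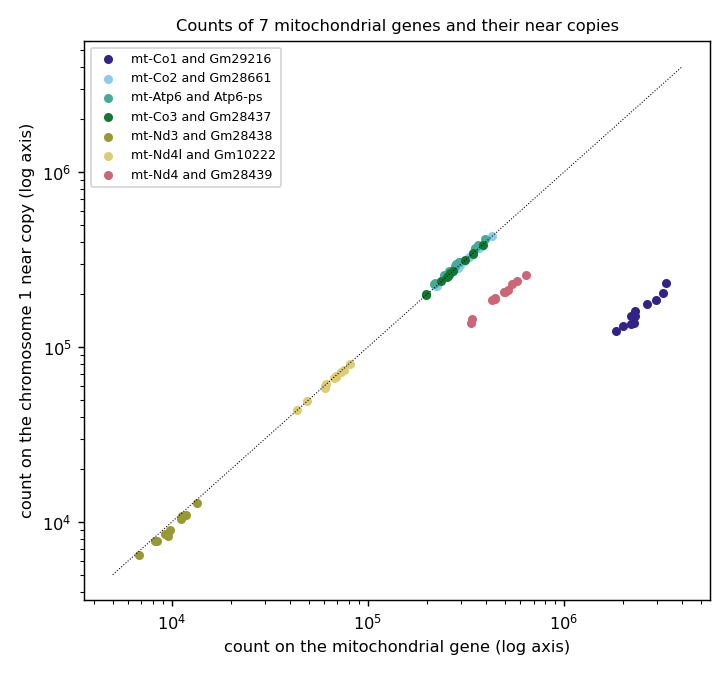
Counts per library on 7 mitochondrial genes (x axis, log scale) against counts on their near copies on chromosome 1 (y axis, log scale), with 1 point per library and a dotted line where both are equal. The pairs that are copied almost in full lie along the line, while mt-Nd4 and mt-Co1 lie below it.

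Mitochondrially encoded transcripts made up a large part of each library, and their share relative to the nuclear subunits was higher with hemin. They took 7.73% ± 0.794 of all counts with TGF-β1 (SD, n = 6) and 8.79% ± 0.639 with hemin (n = 5). The groups overlapped on this measure, since the TGF-β1 libraries ran from 6.81% to 8.77% and the hemin libraries from 8.05% to 9.49%. The chromosome 1 near copies, left out of these shares, took a further 1.67% of counts with TGF-β1 and 1.92% with hemin on average. The 87 nuclear members together took 0.693% ± 0.0307 and 0.657% ± 0.0173 of counts, and these ranges overlapped too.

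The ratio of the 2 sums differed more clearly. There were 10.8, 12.3, 12.0, 10.3, 11.8 and 9.73 mitochondrial counts per nuclear member count in TGF-β1 replicates 1 to 6, and 14.5, 13.2, 14.3, 12.6 and 12.4 in hemin replicates 2 to 6. Every hemin library lay above every TGF-β1 library, and the means were 11.2 ± 1.03 and 13.4 ± 0.962. Summed per length as FPKM, the ratio was 20.5 ± 1.98 and 24.5 ± 1.69, with ranges that met at 22.6. No p is given for these sums, because the members were chosen with earlier results of these data known. The most abundant gene of the whole table by mean count was mt-Co1, which held 40.5% ± 1.62 of the mitochondrial members' counts with TGF-β1 and 40.5% ± 1.99 with hemin.

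**Figure D2:**
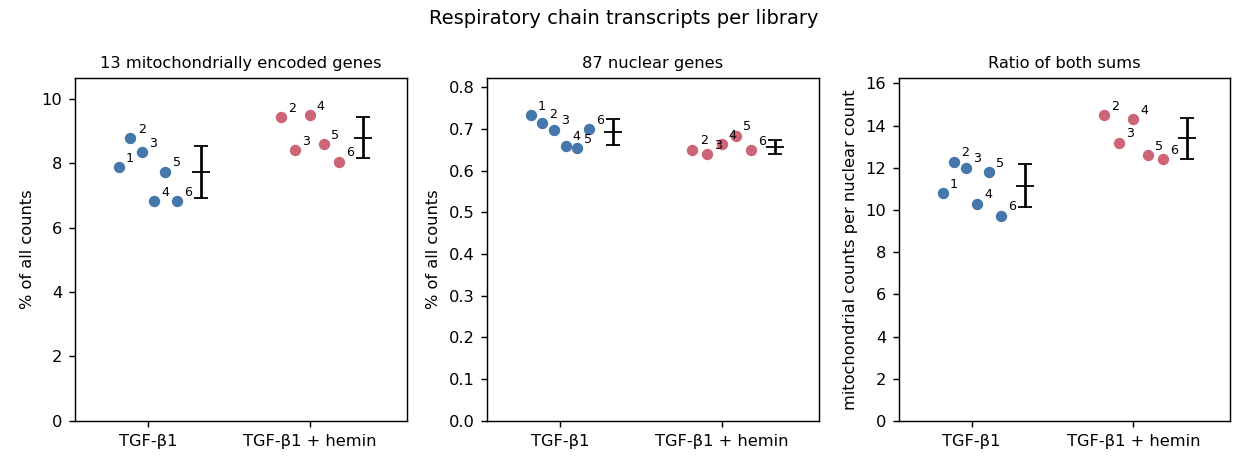
Percent of all counts on the 13 mitochondrially encoded genes (left), on the 87 nuclear genes (middle) and the ratio of both sums (right) for each library, numbered by replicate, with the mean and 1 SD beside each group. The ratio is 9.73 to 12.3 with TGF-β1 and 12.4 to 14.5 with hemin.

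Gene by gene, 13 of 13 mitochondrially encoded members had a positive log2 fold change with hemin, and 6 of them passed edgeR's quasi-likelihood test at an adjusted p under 0.05 (Benjamini-Hochberg over all 15132 tested genes). None was lower, and with DESeq2, which called 9.89% of all genes higher and 8.2% lower, the same 6 were higher and 0 lower. Over all tested genes 14.2% passed the test, 8.43% being higher and 5.75% lower, and 49.5% had a log2 fold change above 0. The median log2 fold change of the 13 was 0.30 (0.19 to 0.38), and that of all tested genes was 0.00. All 13 had an unadjusted p under 0.05, as 25.9% of all tested genes did. None of the 13 separated the groups without overlap, as 10.2% of all tested genes did (6.29% higher and 3.93% lower).

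The 3 mitochondrial subunits of complex IV, which hold the site where oxygen is reduced, all rose. For mt-Co1 the lowest, median and highest of the TGF-β1 libraries were 26427, 29816 and 34469 CPM (counts scaled to library depth with TMM factors), and hemin replicates 2 to 6 were at 41286, 32004, 42871, 36064 and 34495 CPM. All but hemin replicate 3 lay above the highest TGF-β1 library, and the log2 fold change was 0.31 ± 0.08 (SE; edgeR adjusted p = 0.0189). For mt-Co2 (MT:7013-7696), the subunit that takes electrons from cytochrome c, the TGF-β1 libraries were at 3168, 3697 and 4621 CPM and the hemin libraries at 4596, 4579, 5397, 4691 and 4091 CPM. Here 2 of 5 hemin libraries exceeded the highest TGF-β1 library, and the log2 fold change was 0.33 ± 0.09 (edgeR adjusted p = 0.0244). For mt-Co3 (MT:8607-9390), a core subunit without redox cofactors, the TGF-β1 libraries were at 2763, 3318 and 3945 CPM and the hemin libraries at 4215, 4405, 4984, 4203 and 3712 CPM. This was the member with the largest rise among the 13, at 0.38 ± 0.09 (edgeR adjusted p = 0.00992), and 4 of 5 hemin libraries exceeded the highest TGF-β1 library.

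Both mitochondrial ATP synthase genes rose as well. For mt-Atp6, part of the proton channel, the lowest, median and highest TGF-β1 libraries were at 3086, 3506 and 4204 CPM and the hemin libraries at 4541, 4086, 5124, 4296 and 3934 CPM, a log2 fold change of 0.31 ± 0.09 (edgeR adjusted p = 0.0205). For mt-Atp8, a small stalk protein, they were at 992, 1144 and 1352 CPM and at 1445, 1282, 1699, 1364 and 1263 CPM, a log2 fold change of 0.30 ± 0.09 (edgeR adjusted p = 0.0302). In each of these 2 genes 3 of 5 hemin libraries exceeded the highest TGF-β1 library. Because they share 43 bases they are not independent, and the near copy Atp6-ps moved with mt-Atp6 (0.31, adjusted p = 0.0214).

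Of the 7 mitochondrial complex I genes, 1 passed the test. This was mt-Nd2 (MT:3914-4951), a membrane subunit of the proton-pumping arm, at 3121, 3846 and 4389 CPM in the lowest, median and highest TGF-β1 library and 4526, 4518, 5108, 4875 and 4165 CPM with hemin (0.31 ± 0.09, edgeR adjusted p = 0.0214). In 4 of 5 hemin libraries it was above the highest TGF-β1 library. The other 6, all membrane subunits too, had log2 fold changes of 0.24 to 0.31 with adjusted p of 0.0571 to 0.166. Among these, mt-Nd5 was at 7840 ± 1361 CPM with TGF-β1 and 9587 ± 668 with hemin, and mt-Nd6, the only one of the 13 on the minus strand, at 1937 ± 339 and 2404 ± 201 CPM. These 2 overlap by 14 bases on opposite strands, and no source used here gives the strand setting of the counting. The one mitochondrial gene of complex III, mt-Cytb, which holds the b hemes, had the smallest value of the 13, from 6100 ± 680 to 6966 ± 704 CPM (0.19 ± 0.08, edgeR adjusted p = 0.14).

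Compared per length over all libraries, mt-Co1 led at a mean of 20087 FPKM, followed by mt-Nd1 at 6856, mt-Atp8 at 5749, mt-Co2 at 5627, mt-Atp6 at 5347 and mt-Cytb at 5274 FPKM. The middle of that order, from mt-Atp8 to mt-Cytb, lies within the spread between libraries. How reads shared with near copies were counted is not known, so below mt-Co1 the places of genes with a near copy are uncertain too. The lowest were mt-Nd4l at 2732 and mt-Nd3 at 364 FPKM. The ribosomal RNAs mt-Rnr1 and mt-Rnr2, which lack long poly(A) tails, did not pass the test (0.43, adjusted p = 0.101, and 0.17, adjusted p = 0.492), and neither passed in DESeq2. Of 22 mitochondrial transfer RNA rows 1 was called higher, mt-Ts1 at 0.33 (edgeR adjusted p = 0.0385). It overlaps mt-Co1 by 3 bases on the opposite strand. Of the 22 rows, 21 had a log2 fold change above 0 and 1 below, with a median of 0.27 and a median standard error of 0.22. At an unadjusted p under 0.05, 6 were higher and 0 lower, and DESeq2 called 2 higher.

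**Figure D3:**
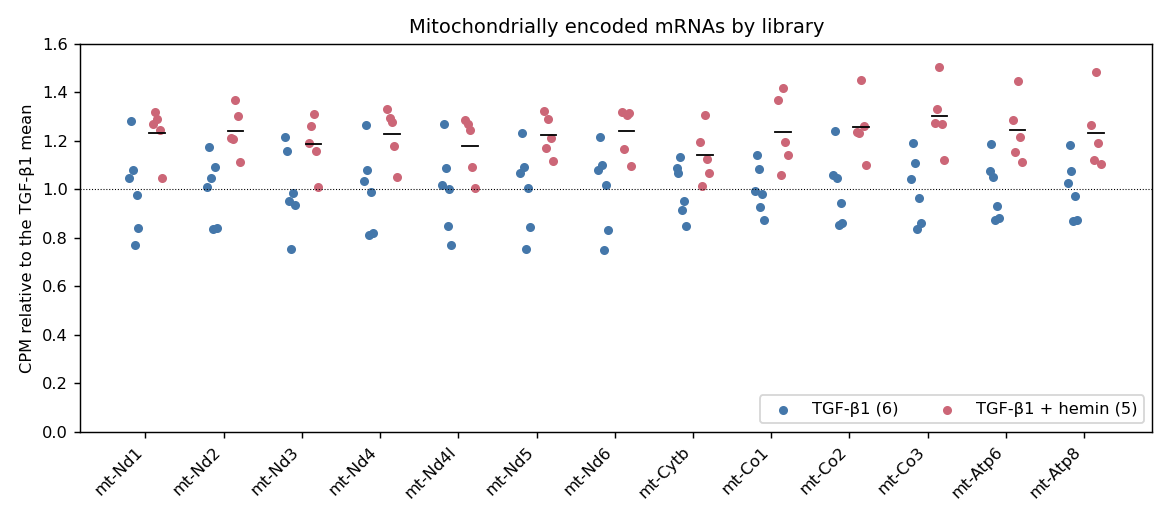
CPM of the 13 mitochondrially encoded genes in each library, divided by the gene's mean over the TGF-β1 libraries (y axis), for 6 TGF-β1 and 5 hemin libraries, with the hemin mean as a bar. The hemin means lie above 1 in all 13, and in all 13 the lowest hemin library lies within the range of the TGF-β1 libraries.

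Few nuclear subunits passed the test. Of 87 nuclear members 86 had enough counts for the test; Ndufb11b was listed at or near 0 in every library. In edgeR 2 were higher and 0 lower, or 2 of 86 where 14.2% of all genes were called. At an unadjusted p under 0.05 there were 8 higher and 1 lower, and DESeq2 called 4 higher and 0 lower. The median log2 fold change was 0.04, with 62 above 0 and 24 below. The 81 nuclear members with a mean of at least 1.5 FPKM had log2 fold changes from -0.16 to 0.31, and 78 of them were under 0.2 in size, as 60.6% of all tested genes were.

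The 37 nuclear subunits of complex I include the 7 core proteins that oxidise NADH and reduce ubiquinone (among them Ndufv1, Ndufv2 and Ndufs1). Their log2 fold changes were 0.00 to 0.13 and none passed the test in edgeR, in DESeq2 or at an unadjusted p under 0.05. Ndufv1, which binds NADH, was at 67.7 ± 3.29 CPM with TGF-β1 and 70.7 ± 5.22 with hemin. Ndufa8, an accessory subunit and the most abundant nuclear complex I gene per length, was at 62.4 ± 4.34 and 63.2 ± 3.82 FPKM. FPKM values are the deposited ones, without TMM scaling, and for 25 of the 99 members with a matched transcript the length behind them is over 2 times that of the longest coding transcript, which lowers their FPKM.

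The accessory subunit gene Ndufb6 (chr4:40270591-40279421, minus strand) was the 1 nuclear complex I member called. Its TGF-β1 libraries had a low of 13.6, a median of 17.0 and a high of 20.5 CPM, and hemin replicates 2 to 6 were at 20.8, 19.3, 23.6, 23.1 and 19.7 CPM. The groups overlapped, with 3 of 5 hemin libraries above the highest TGF-β1 library, and the log2 fold change was 0.31 ± 0.10 (edgeR adjusted p = 0.0419). The call was lost without any 1 of TGF-β1 replicates 3, 4, 5 and 6 or hemin replicates 2, 4 and 5, and over all alternatives its adjusted p was 0.0146 to 0.178.

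Complex II, the succinate dehydrogenase that also serves the citric acid cycle, had no member called among 4. Sdhb, its iron-sulfur subunit, had the largest log2 fold change of the 4, 0.16 ± 0.06 (edgeR adjusted p = 0.077), at 91.2 ± 7.42 CPM with TGF-β1 and 102 ± 4.46 with hemin. The membrane anchor Sdhd, the most abundant per length, was at 105 ± 7.22 and 104 ± 8.85 CPM. Among the 9 nuclear genes of complex III none was called. Uqcrfs1, the Rieske iron-sulfur protein, was at 86.1 ± 8.97 and 83.6 ± 4.48 CPM, and the largest value was that of the accessory subunit Uqcrb (33.1 ± 4.36 and 38.2 ± 1.59 CPM, 0.21 ± 0.08, edgeR adjusted p = 0.113). Cytochrome c itself, Cycs, was at 74.3 ± 5.17 and 80.6 ± 9.47 CPM (0.12 ± 0.07, edgeR adjusted p = 0.33).

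Of the 18 nuclear members of complex IV, DESeq2 called 2 higher and 0 lower. At an unadjusted p under 0.05 in edgeR, 3 were higher and 1 lower. At the adjusted threshold edgeR called 1 of the 18. This was Cox6a2 (chr7:127804607-127805559, minus strand), the isoform of subunit 6A known from heart and skeletal muscle, and its level was low. In TGF-β1 replicates it was at 0.404 (lowest), 0.61 (median) and 1.23 (highest) CPM, and with hemin at 1.43, 1.95, 1.63, 1.5 and 1.38 CPM. The groups did not overlap, and the log2 fold change was 1.25 ± 0.29 (edgeR adjusted p = 0.00734; 27 to 88 and 92 to 139 counts per library). Cox6a2 shares 70 bases with Itgad, an integrin gene on the opposite strand that had 402 counts on average against 81.1 for Cox6a2, and that was at 0.11 with an adjusted p of 0.735. The widely used isoform Cox6a1 was at 158 ± 12.3 and 158 ± 10.1 FPKM, so Cox6a2 amounted to 0.61% ± 0.331 of it per length with TGF-β1 and 1.32% ± 0.235 with hemin.

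The other restricted isoforms of complex IV were low as well and none passed the edgeR test. Cox4i2, the oxygen-sensitive isoform of subunit 4, was at 0.963, 1.22 and 1.33 CPM (lowest, median and highest) with TGF-β1 and 0.467, 1.15, 0.335, 0.991 and 0.452 CPM with hemin. Hemin replicates 3 and 5 lay within the TGF-β1 range and the other 3 below it (-0.78 ± 0.34, edgeR adjusted p = 0.15). It was called lower in the 3 limma fits on FPKM with a low-value filter, and over all alternatives its adjusted p was 0.0132 to 0.285. Cox4i2 passed that filter only through the TGF-β1 libraries, all at 1.195 FPKM or more, so these calls are no further support. In limma without the filter it was not called. Relative to Cox4i1 per length it was 0.772% ± 0.0707 and 0.43% ± 0.252. Cox6b2, otherwise known from testis, was at 0.475% ± 0.228 and 0.294% ± 0.171 of Cox6b1, Cox7a1 at 1.72% ± 0.918 and 1.87% ± 0.443 of Cox7a2, and Ndufa4l2 at 4.12% ± 3.56 and 5.16% ± 2.61 of Ndufa4. Cox5b, a further accessory subunit, was the other nuclear member whose groups did not overlap (46.5 ± 4.08 and 51.9 ± 0.29 CPM, 0.16 ± 0.06, edgeR adjusted p = 0.087). It was named after its values were seen. Cox6a2 and Cox5b were thus 2 of 86 tested nuclear members, where 10.2% of all tested genes had groups that did not overlap. The most abundant nuclear complex IV gene per length, Cox4i1, was at 185 ± 11.8 and 181 ± 9.22 FPKM.

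Complex V had none of 18 nuclear members called in edgeR, with 1 higher at an unadjusted p under 0.05 and 1 higher in DESeq2 (Atp5mg). Its catalytic subunit genes Atp5f1a and Atp5f1b were the most abundant nuclear members: with TGF-β1 Atp5f1a was at 220 ± 5.9 FPKM and Atp5f1b at 205 ± 7.46 FPKM. The log2 fold changes were -0.05 ± 0.04 for Atp5f1a and 0.01 ± 0.04 for Atp5f1b. The 3 genes for the identical c-ring protein, Atp5mc1, Atp5mc2 and Atp5mc3, were at 0.05, 0.00 and 0.07. Atp5mg, a membrane accessory subunit, had the largest value of the complex, from 55.4 ± 4.13 to 62.7 ± 4.35 CPM (0.18 ± 0.06, edgeR adjusted p = 0.0644). Summed over each complex, the nuclear genes' CPM ranges overlapped between the groups in all 5 complexes, from 2916 ± 165 and 2928 ± 95.6 for complex V to 1054 ± 85.1 and 1117 ± 85.0 for complex IV.

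**Figure D4:**
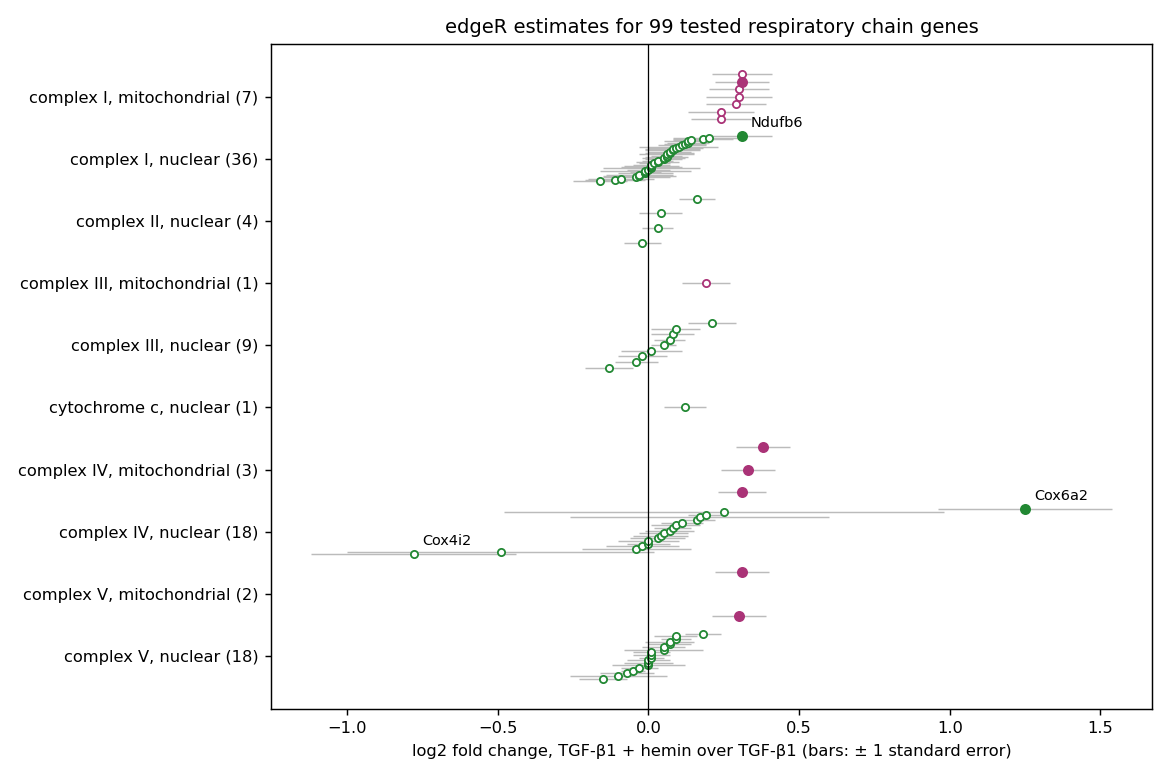
Log2 fold change of each of the 99 tested members, TGF-β1 with hemin over TGF-β1, with bars of 1 standard error, by complex and genome (number tested in brackets). Filled points passed the edgeR test; the mitochondrially encoded genes lie at 0.19 to 0.38, and most nuclear genes lie near 0.

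Grouped by cofactor, 1 of the 6 genes whose proteins bind heme was called higher (mt-Co1; the others are mt-Cytb, Cyc1, Cycs, Sdhc and Sdhd), with a median of 0.10. Of 7 iron-sulfur subunit genes none was called in edgeR or DESeq2, 1 had an unadjusted p under 0.05, and the median was 0.03. None of 15 assembly factors for complex I, 4 for complex II, 6 for complex III, 20 for complex IV and 3 for complex V was called in edgeR. At an unadjusted p under 0.05 the complex IV list had 3 higher and 1 lower, and the other 4 had none. DESeq2 called 2 higher in the complex IV list and none elsewhere. The heme a synthesis genes Cox10 and Cox15 were at -0.18 (edgeR adjusted p = 0.176) and 0.03 (adjusted p = 0.886), and Hccs, which attaches heme to cytochrome c, at -0.01 (adjusted p = 0.976).

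Among 27 genes of mitochondrial gene expression, edgeR called 0 higher and 1 lower, the DNA polymerase gene Polg, from 69.6 ± 4.89 to 60.5 ± 3.39 CPM (-0.20 ± 0.06, adjusted p = 0.0231). The transcription genes Polrmt and Tfam were at 0.07 and -0.02, with adjusted p of 0.625 and 0.897, and Lrpprc, which stabilises mitochondrial mRNA, at -0.10 (adjusted p = 0.253). Of 8 tested regulators of biogenesis 1 was lower, Gabpa, which encodes a subunit of an ETS factor (-0.27 ± 0.08, edgeR adjusted p = 0.0255). Gabpa overlaps the ATP synthase gene Atp5pf by 701 bases on the opposite strand, and Atp5pf was at 0.07. Of 78 mitochondrial ribosomal protein genes 1 was higher, Mrpl38 (0.25, adjusted p = 0.0125). None of 18 genes for ubiquinone synthesis and other electron entry was called in edgeR, with 1 lower at an unadjusted p under 0.05 and 1 lower in DESeq2.

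The KEGG oxidative phosphorylation set, as annotated in the deposited table, also holds the vacuolar proton pump, which acidifies lysosomes and is no part of the respiratory chain. Of its 125 tested genes 19 were higher and 0 lower, where 8.43% of all tested genes were higher and 5.75% lower. The 19 were 2 of 82 nuclear members, 6 of 13 mitochondrially encoded members, 9 of 17 vacuolar ATPase genes and 2 of the 13 others. Of the vacuolar genes, Atp6v0c, the proteolipid ring, went from 695 ± 46.5 to 908 ± 73.1 CPM (0.38 ± 0.06, edgeR adjusted p = 0.000328). The 2 others, Tcirg1 (0.71, adjusted p = 2.37e-08) and Atp6ap1 (0.22, adjusted p = 0.00982), encode a vacuolar pump subunit and an accessory protein of that pump. Of the 19 genes called in the set, 8 therefore belonged to the respiratory chain or ATP synthase.

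Promoter motifs played no part in choosing the nuclear members, and each motif searched was in a minority of them. RefSeq promoter windows (GRCm38.p6, 250 bases before to 50 after the start) were matched for 67 of the 87. The NRF1 motif, GCGCA and GCGC with any 1 base between them, was in 25.4% of these on either strand, against 7.17% of 17492 protein-coding promoters. The ETS motif CCGGAAG was in 23.9% against 12.9%, the YY1 motif AAGATGGC in 14.9% against 3.57%, and TATAAA in 7.46% against 14.8%. The called gene Ndufb6 held the ETS motif and none of the other 3. The other called nuclear gene, Cox6a2, had no matched window and was not searched. A match to these letters is a description of the window, not of binding.

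The signs of the nuclear values depend on the scaling, and those of the mitochondrial ones did not. The TMM factors themselves did not overlap between groups (0.994 to 1.06 with TGF-β1, 0.924 to 0.982 with hemin). With library totals alone the median of all tested genes was -0.12, the nuclear median -0.07 with 17 of 86 above 0, and the mitochondrial median 0.19 with 13 of 13 above 0. Calls over all genes then moved from 1276 higher and 870 lower to 734 higher (4.85%) and 2487 lower (16.4%). Among the members 1 nuclear gene was then higher (Cox6a2) and 4 lower (Atp5f1a, Atp5mj, Ndufs4 and Uqcrh), and 1 mitochondrial gene was higher (mt-Co3). A change of scaling shifts all genes by about the same amount, so the distance between the mitochondrial and nuclear medians, 0.26, is fixed by construction between scalings. Where libraries were left out it was 0.22 to 0.32. Without hemin replicate 4, 1 mitochondrial gene was called (mt-Co3), and without TGF-β1 replicate 2, 11 were; these fits called 6.6% and 8.31% of all genes higher. The call of mt-Co3 held whichever single library was left out. Those of mt-Co1, mt-Co2, mt-Nd2, mt-Atp6 and mt-Atp8 were lost without hemin replicate 4, and no other single library ended the call of mt-Atp6. The calls of mt-Co1 and mt-Atp8 were also lost without hemin replicate 2, that of mt-Nd2 without hemin replicate 5, and those of mt-Co2 and mt-Atp8 without any 1 of TGF-β1 replicates 4, 5 and 6. A further 4 mitochondrial and 4 nuclear members had adjusted p from 0.05 to 0.1.

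**Figure D5:**
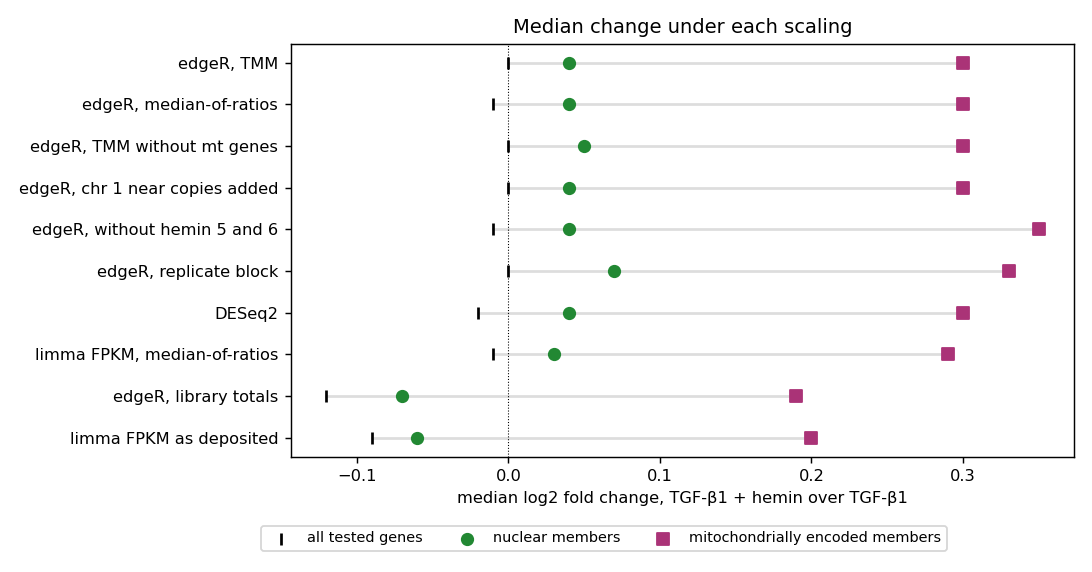
Median log2 fold change of all tested genes, of the nuclear members and of the mitochondrially encoded members (x axis) under each scaling and tool (y axis). The 2 fits at the bottom, without scaling beyond the library totals, have all 3 medians lower than the fits above them; the scaling itself hardly changes the distance between medians.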

How the data were processed

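Gene-level read counts and FPKM values were deposited by the authors in 1 table of 11 libraries. Per the submitters' processing notes, reads were handled with cutadapt 1.9, FastQC 0.11.9, HISAT2 2.2.1 and StringTie 2.1.6 on GRCm39, and DESeq2 is also named; the counting tool, the annotation release and the strand setting are named in no source used here. Total counts were 65509474 to 71458745 (TGF-β1) and 66695616 to 96586085 (hemin).

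From the deposited counts, edgeR 4.0.16 (R 4.3.3) was fitted on all genes kept by filterByExpr (minimum count 10, minimum total 15), with TMM factors, group as the only term and quasi-likelihood F tests, 2-sided, adjusted by Benjamini-Hochberg over 15132 genes with a threshold of 0.05. CPM are counts scaled to library depth with TMM factors. Alternatives were DESeq2 1.42.0, its size factors, library totals, TMM without mitochondrial genes, no filter, each library left out, hemin replicates 5 and 6 left out, a replicate block, and limma 3.58.1 on log2(FPKM + 1 or 0.1) for genes at 1 FPKM or more in at least 5 libraries, as deposited or with median-of-ratios scaling. Adding each near copy's count to its mitochondrial gene was chosen after seeing the data.

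Members, lists and markers were chosen with earlier results of these data known. Genes were named by a fixed rule: all called members, the 13 mitochondrial genes, the most abundant nuclear gene and the largest change per complex at 1 FPKM or more, and pairs of isoform genes; some results for single genes are not reported here. Sequences came from GENCODE M21 and RefSeq.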

Additional observations from a re-analysis of the deposited data

Results flagged for a closer look

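In 128 groups of 5 or 6 libraries checked, one for each condition of a gene or summed share with a value in the text, 9 held a library far from the others, and chance flags about 1 in 20 groups. For Cox6a2, TGF-β1 replicate 4 was at 1.23 CPM while the other 5 TGF-β1 libraries were at 0.404 to 0.618 CPM. It still lay below the lowest hemin library, at 1.38 CPM. For mt-Nd1, a membrane subunit of complex I, hemin replicate 6 was at 6704 CPM while the other 4 hemin libraries were at 7960 to 8435 CPM. Without that library mt-Nd1 was among 8 mitochondrial genes called higher.

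3 adjacent mitochondrial transfer RNAs between mt-Nd4 and mt-Nd5 (positions 11546 to 11741), singled out after their values were seen, stood far higher in hemin replicate 2 than in all other libraries. There mt-Th was at 11.8, mt-Ts2 at 7.95 and mt-Tl2 at 9.46 CPM. In the other hemin libraries they were at 1.06 to 2.02, 0.627 to 1.21 and 0.86 to 1.5 CPM, within the TGF-β1 ranges of 0.504 to 2.7, 0.42 to 1.96 and 0.462 to 2.23 CPM. The highest TGF-β1 value of mt-Ts2, 1.96 CPM in replicate 2, also stood apart from the other 5 (0.42 to 0.941 CPM). The log2 fold changes of 1.44 ± 0.58, 1.34 ± 0.60 and 1.41 ± 0.59 rest on hemin replicate 2. With edgeR adjusted p of 0.119, 0.168 and 0.139 none passed the test. The excess in hemin replicate 2 was not confined to these positions. There mt-Tr and mt-Tg, which were not among the groups checked, were at 6.67 and 5.97 CPM. In the other hemin libraries they were at 1.77 to 2.28 and 1.57 to 2.62 CPM, and with TGF-β1 at most at 2.77 and 2.97 CPM.

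The ribosomal RNA mt-Rnr1 was at 601 CPM in TGF-β1 replicate 2 and at 239 to 361 CPM in the other 5 TGF-β1 libraries. The vacuolar pump gene Tcirg1 was at 334 CPM in TGF-β1 replicate 6 and at 368 to 385 CPM in the other 5, and Atp6ap1 was at 445 CPM in hemin replicate 3 and at 524 to 544 CPM in the other 4.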

How the results depend on the processing

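The edgeR fit with TMM factors called 2 nuclear members higher, 0 lower and 6 mitochondrially encoded members higher. DESeq2 called 4 nuclear genes higher. With library totals alone, without a filter on low counts, and without hemin replicates 5 and 6, 1 was higher, Cox6a2. The same gene was higher with limma on FPKM as deposited (pseudocount 1 or 0.1, or no filter). Cox6a2 passed limma's filter only through the hemin libraries, all at 1.831 FPKM or more, against a mean of 0.938 with TGF-β1. Its calls in the filtered limma fits are therefore no further support. Nuclear genes called lower numbered 4 with library totals, 6 with limma at pseudocounts of 1 and 0.1 (where 20.8% and 20.9% of all genes were lower), 2 without its filter (6.51% of all genes) and 1, Cox4i2, with median-of-ratios scaling (8.38%). Mitochondrial genes called higher numbered 1 with library totals and with limma at either pseudocount, 0 with limma without a filter (where all 13 were above 0) and 2 in edgeR without a filter, where more genes were tested. The nuclear median was -0.07 with library totals and -0.06 in the 3 limma fits without scaling. The mitochondrial share rose by 1.07 percentage points of counts and 2.13 of FPKM. Leaving out 1 library in turn gave 1 to 3 nuclear genes higher, 0 lower and 1 to 11 mitochondrial genes higher, with medians of 0.01 to 0.07 and 0.24 to 0.36. Adding the near copies' counts left 2 and 6 calls. The cause of these shifts was not tested beyond the scaling itself.

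With the replicate number as a block, 2 nuclear and 9 mitochondrial genes were higher, as 6.21% of all genes were, with medians of 0.07 and 0.33; mt-Atp8 lost its call and mt-Nd1, mt-Nd4, mt-Nd5 and mt-Nd6 gained one. Same-numbered libraries correlated at -0.149 to 0.144 over 5 pairs, and 1 of 5 hemin libraries correlated best with its own number. Hemin replicate 2 stood at 0.093 with TGF-β1 replicates 2 and 5 alike. No pairing by number was seen, but 5 pairs cannot exclude one, and the labels do not say what the numbers mean.

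Depth does not limit the abundant members, but Cox6a2, Cox4i2, Cox6b2, Cox7a1 and Ndufa4l2 rest on at most 139 counts in any library. Changes near 1.25-fold, the size seen in the mitochondrial genes, were often missed in simulated counts. These were drawn at the means, totals and dispersions of these libraries, and edgeR called 40% of 50 genes changed 1.25-fold. The changed genes were picked at random, so the rate for genes as abundant as the mitochondrial ones was not tested. Genes with changes of this size that were not called cannot be taken as unmoved.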

Other observations

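Of the 100 genes of highest mean count, 84 remain once the mitochondrially encoded members and their chromosome 1 near copies are left out. Of these 84, 26 were higher and 11 lower with hemin, where 8.43% of all tested genes were higher and 5.75% lower. Their median was 0.08 on the log2 scale, against 0.30 for the 13 mitochondrially encoded members.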
